A study of Homo sapiens with 6 samples.

Results

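TSPAN12 and TSPAN14 are genes of the tetraspanin family, and in HEK293 cells treated with MOV10 siRNA their mRNAs lay on opposite sides of the mock-treated cells. These 2 of the 7682 genes in the deposited table were chosen by their measured response to the siRNA, TSPAN12 for higher and TSPAN14 for lower values. Their differences between siRNA and mock cells in total RNA, 4sU-labelled RNA, flow-through RNA and half-life are therefore given as a description, with no test. The same holds for their labelled against flow-through RNA in mock cells, since those mock columns entered the choice. Tests are given for the other tetraspanins and the partner genes.

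The cells were HEK293, a human embryonic kidney line, either transfected with MOV10 siRNA or mock transfected. MOV10 is an RNA helicase, and the study asked how its depletion altered mRNA half-lives. Cells of both groups received 700 µM 4-thiouridine (4sU), a uridine analogue built into new RNA, for 60 min. RNA carrying 4sU was then biotinylated and pulled out on streptavidin beads, and poly(A)+ libraries were made from the total RNA, the 4sU-labelled RNA and the unlabelled RNA left in the flow-through. The 6 samples in GEO stand for 1 fraction of 1 condition each, and the table holds a replicate 1 and a replicate 2 of each in its 12 expression columns, plus 4 half-life columns. Nothing in the sources used here says that the replicates were separate cultures, so p-values measure the spread between these columns, which may be technical. In these bulk libraries, a difference in every cell and a difference in some of the cells cannot be told apart.

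Tetraspanins are small proteins that cross the membrane several times and gather other membrane proteins around them. TSPAN12 is known as part of the receptor complex for the ligand Norrin, with the receptor FZD4 and the co-receptor LRP5, and in retinal vessels it raises signalling through beta-catenin. TSPAN14 belongs to the TspanC8 group, which binds the metalloprotease ADAM10, brings it out of the endoplasmic reticulum to the cell surface and shapes which substrates, Notch among them, it cuts.

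In GRCh38, TSPAN12 lies on the minus strand at chr7:120787320-120858402 and TSPAN14 on the plus strand at chr10:80454166-80533123. The 3′ UTRs annotated in GENCODE v29 were searched on the transcript strand for TACTGCA, a sequence that earlier results of these data brought up, for TGTANATA, the recognition element of Pumilio proteins, and for ATTTA, the core of AU-rich elements. The 30-base windows below show where TSPAN14 holds TACTGCA and where each gene holds its TGTANATA match, with the match in capitals.
TSPAN14, TACTGCA, chr10:80518919-80518948, plus strand: tctcctccacaTACTGCAgcctccctccat
TSPAN14, TGTANATA, chr10:80518742-80518771, plus strand: ttcttaaagtgTGTAAATAgtttatttata
TSPAN12, TGTANATA, chr7:120787983-120788012, minus strand: cagggatttttTGTATATAagtctgtgtta

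The TACTGCA match began at base 954 of the 3′ UTR, and the same match stood in 3 annotated TSPAN14 transcripts, whose 3′ UTRs were 1652, 4655 and 15147 bases long. Of the 3′ UTRs within 20% of those lengths, 10.1% of 889, 27.7% of 458 and 67.9% of 28 held TACTGCA, so for the longest form a match was common. The other 4 annotated TSPAN14 transcripts had 3′ UTRs of 65 to 361 bases without it, and which transcripts these cells used was not determined. TSPAN12 had a longest annotated 3′ UTR of 1272 bases with no TACTGCA, beside 9.44% of 816 3′ UTRs of similar length with one. Its GC content was 29.95%, against a median of 42.4% over the longest 3′ UTRs of 5664 genes. TSPAN14 had 49.8% in its longest form, of 15147 bases, and 52.3% in the 4655-base form. ATTTA occurred 4 times in the TSPAN12 3′ UTR (80.9% of similar-length 3′ UTRs held at least 1) and 3 times in the 4655-base TSPAN14 form (98.9%), and TGTANATA once in each (24.9% and 57.0%). The 15147-base TSPAN14 form held ATTTA 13 times (100%) and TGTANATA once (82.1%). None of the 2370 mature miRNAs in the RefSeq table had bases 2 to 8 complementary to TACTGCA. An antisense gene, AC021028.1, overlaps the end of TSPAN14 at chr10:80529597-80535942, and since the counting is not stated to use strand, reads of the 2 cannot be told apart there.

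The targeted gene was checked first. MOV10 total RNA was 3.53 and 3.64 in siRNA cells, against 13.1 and 14.6 in mock cells, and its flow-through RNA was 5.13 and 5.38 against 19.6 and 19.3. Its labelled RNA was 2.55 and 2.63 in siRNA cells and 2.95 and 3.20 in mock cells, so the gap was far smaller in the labelled fraction. Those labelled values lay near the lowest expression value of the table, 1.00. Expression values carry no named unit and are not stated to be per length, so expression levels are not compared between genes, and fractions are set against each other only as ratios within a gene, beside the same ratio of the median gene or of other genes. Replicate columns of a group correlated at Spearman 0.993 to 0.996 over genes. Of 8 HEK293 markers 3 were in the table (NEFL, INA and VIM) and of 10 markers of blood, liver, fibroblast and endothelium none was, in a table whose lowest expression value was 1.00. Tests used limma on log2(value + 1), centred on each column's median gene, over the 6064 genes whose total RNA averaged at least 5 in siRNA and in mock cells, at an adjusted p of 0.05.

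TSPAN12 was higher in every fraction of the siRNA cells. Its total RNA was 21.6 and 18.4 in siRNA cells, against 10.2 and 9.79 in mock cells. The flow-through values were 27.7 and 24.6 in siRNA cells, against 13.2 and 13.1 in mock cells. In labelled RNA, the 60-min product, the values were 13.5 and 13.0 in siRNA cells and 9.11 and 7.62 in mock cells. The groups did not overlap in any of the 3 fractions, and the share of all genes without overlap was not computed. Total RNA averaged 20.01 ± 2.32 in siRNA cells and 9.98 ± 0.27 in mock cells (SD, n = 2 columns each), a 2.00-fold ratio. Relative to the median gene the log2 change was 0.95 in total RNA, the highest of 6064 genes, 0.95 in flow-through RNA, the second highest, and 0.48 in labelled RNA, rank 93 from the top.

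TSPAN14 was lower in total and flow-through RNA of the siRNA cells, while its labelled RNA overlapped between the groups. Its total RNA was 6.41 and 6.54 in siRNA cells, against 11.01 and 12.7 in mock cells. Flow-through RNA was 7.09 and 6.14 in siRNA cells, against 17.7 and 17.5 in mock cells. Labelled RNA was 7.99 and 6.85 in siRNA cells and 7.75 and 7.55 in mock cells, so 1 siRNA column lay above both mock columns and the other below both. Flow-through RNA averaged 6.61 ± 0.67 in siRNA cells and 17.6 ± 0.15 in mock cells (SD, n = 2 columns each), 2.66-fold lower. On the log2 scale relative to the median gene the change was -1.27 in flow-through RNA, the 35th lowest of 6064 genes, -0.76 in total RNA, the 87th lowest, and -0.18 in labelled RNA, the 1252nd lowest. TSPAN14 thus had a wide gap in flow-through RNA and overlapping groups in labelled RNA, whereas TSPAN12 differed in both. MOV10 also had a smaller gap in labelled RNA (log2 change -0.32), but there its groups did not overlap. MOV10 was below the floor, and its labelled values, 2.55 to 3.20, lay near the lowest expression value of 1.00.

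**Figure D1:**
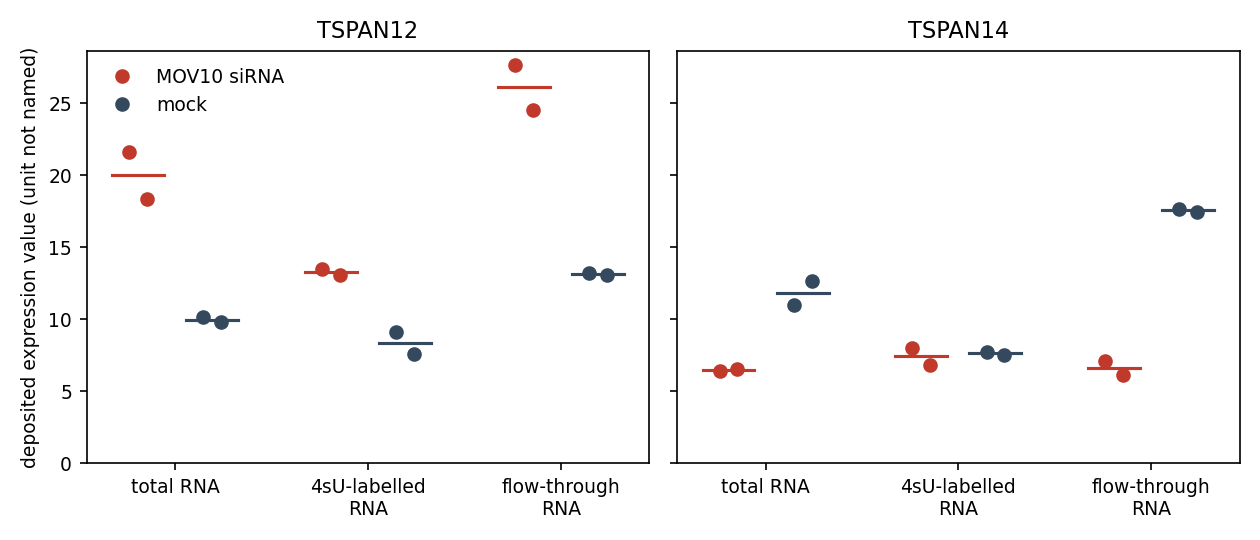
Deposited expression values (unit not named) of TSPAN12 and TSPAN14 in total, 4sU-labelled and flow-through RNA, with 1 point per replicate column and a line at the mean of 2 columns. The MOV10 siRNA points of TSPAN12 lie above the mock points in all 3 fractions, and those of TSPAN14 lie below them in total and flow-through RNA and straddle them in labelled RNA.

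The deposited half-lives of the pair changed places between the conditions. TSPAN12 had half-lives of 760 and 960 min in siRNA cells, against 491 and 596 min in mock cells. TSPAN14 had half-lives of 367 and 515 min in siRNA cells, against 867 and 920 min in mock cells. In siRNA cells TSPAN12 was thus the longer-lived mRNA in both columns, and in mock cells TSPAN14 was. The means ran, from longest, 894 ± 37.6 min for TSPAN14 in mock cells, 860 ± 142 min for TSPAN12 in siRNA cells, 544 ± 74.3 min for TSPAN12 in mock cells and 441 ± 105 min for TSPAN14 in siRNA cells (SD, n = 2 columns each). The first and second of these overlapped, as did the third and the last. The median half-life differed between columns, and over the 6064 genes it was 764 and 1030 min in siRNA cells and 742 and 810 min in mock cells. Relative to those medians the log2 change was 0.46 for TSPAN12, rank 133 from the top, and -1.23 for TSPAN14, the 10th lowest. TSPAN12 exceeded 49.8% and 46.4% of genes in the siRNA columns and 30.2% and 35.2% in the mock columns, so it stood near the median gene after the siRNA and below it in mock cells. TSPAN14 exceeded 20.6% and 21.6% of genes in the siRNA columns, against 59.0% and 57.9% in the mock columns.

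Half-lives were also recomputed from the fractions, taking total RNA as a weighted sum of labelled and flow-through RNA and first-order decay over the 60-min label. TSPAN14 gave 214 and 200 min in siRNA cells, against 531 and 572 min in mock cells, without overlap, as in the deposited values. TSPAN12 gave 468 and 399 min in siRNA cells and 345 and 429 min in mock cells, and here the groups overlapped before centring. Relative to the median gene the recomputed log2 change was 0.46 for TSPAN12 and -1.12 for TSPAN14. The recomputed values ran shorter throughout. Over all 7682 genes of the table their medians were 437 and 400 min in siRNA cells and 483 and 536 min in mock cells. The deposited medians over the same genes were 668 and 900 min in siRNA cells and 657 and 713 min in mock cells. The 2 sets correlated over genes at Pearson 0.968 to 0.982 on the log2 scale.

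**Figure D2:**
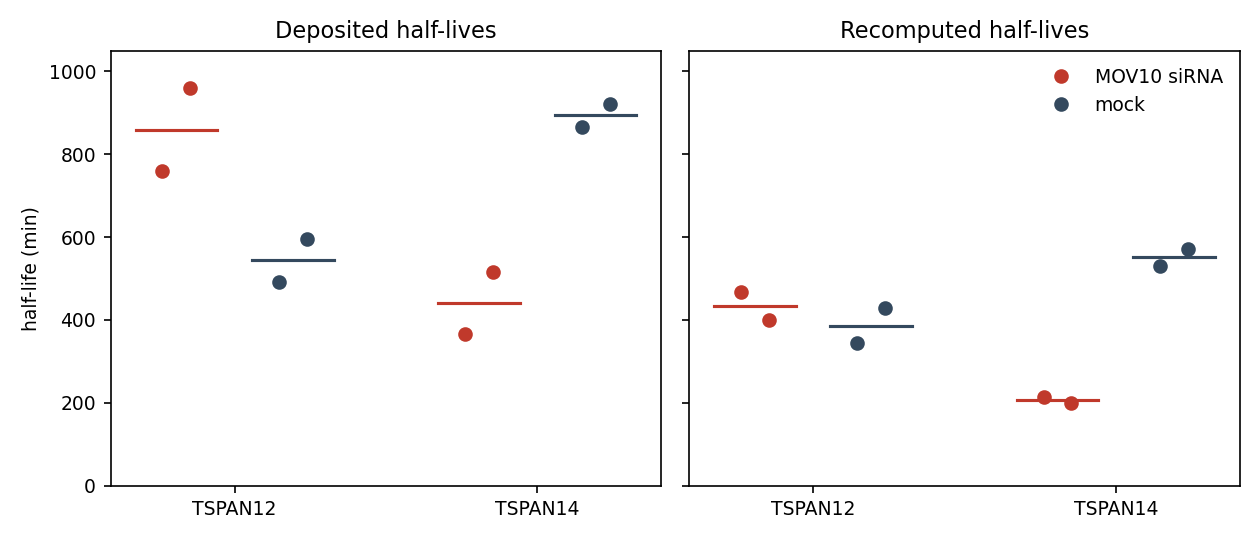
Half-lives in min of TSPAN12 and TSPAN14 as deposited (left) and as recomputed from the 3 fractions (right), with 1 point per replicate column and a line at the mean of 2 columns. The 2 genes lie in opposite order in MOV10 siRNA and mock cells in the deposited values, and the TSPAN12 points of the 2 conditions overlap once recomputed.

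The fractions of TSPAN12 added up and those of TSPAN14 did so less closely. For TSPAN12 the log2 changes in labelled RNA and half-life summed to 0.94, beside 0.95 in total RNA. For TSPAN14 they summed to -1.41, beside -0.76 in total RNA. Measured total RNA of TSPAN14 was 1.10 and 1.32 times the weighted sum of its fractions in siRNA cells and 0.860 and 0.924 times in mock cells. The same ratio for TSPAN12 was 1.05 and 1.02 in siRNA cells and 1.02 and 0.935 in mock cells. Half-lives are computed from these expression values and are not an independent measurement.

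In mock cells the 2 genes differed in their ratio of labelled to flow-through RNA. TSPAN12 had 9.11 and 7.62 in labelled against 13.2 and 13.1 in flow-through RNA, ratios of 0.689 and 0.583, and TSPAN14 had 7.75 and 7.55 against 17.7 and 17.5, ratios of 0.438 and 0.432. The median gene had ratios of 0.419 and 0.401, so both genes lay above it, TSPAN14 only just. In the recomputation a higher ratio gives a shorter half-life. The deposited half-lives of TSPAN14 in mock cells nonetheless lay above those of 59.0% and 57.9% of genes. Relative to the column medians the log2 difference of TSPAN12, labelled minus flow-through, was 0.29, a direction that held at 0.59 when the median change was set to 0 and turned to -0.60 without centring. That of TSPAN14 was -0.21, and it turned to 0.083 when the median change was set to 0. The median of all changes was itself -0.30 relative to the column medians. Choosing a gene for a high or a low siRNA value relative to mock also favours a low or a high mock value, so these differences are a description. By limma with each column centred, 33.2% of genes were called higher and 54.6% lower (2016 and 3311 of 6064), against 2597 and 2595 with the median change at 0 and 819 and 4823 without centring. After the siRNA the order of the pair in the ratio was reversed, with 0.489 and 0.531 for TSPAN12 and 1.13 and 1.12 for TSPAN14.

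All 13 other tetraspanins past the floor were lower in labelled than in flow-through RNA of mock cells by limma, each at an adjusted p under the threshold. Their log2 changes ran from -0.57 for TSPAN33 and TSPAN31 to -1.92 for CD63, a marker of late endosomes and exosomes, with a median of -1.34 beside -0.30 over all genes. All 13 were called lower with the median change at 0 as well. By this difference TSPAN12 and TSPAN14 stood first and second of 15, in mock columns that had entered their choice. TSPAN5, a TspanC8 member below the floor, had ratios of 0.901 and 0.746 in mock cells, above both. By mean deposited half-life in mock cells, TSPAN12 was the shortest-lived of the 15 and TSPAN14 the third shortest, with TSPAN31 at 824 ± 35.3 min between them (SD, n = 2 columns).

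**Figure D3:**
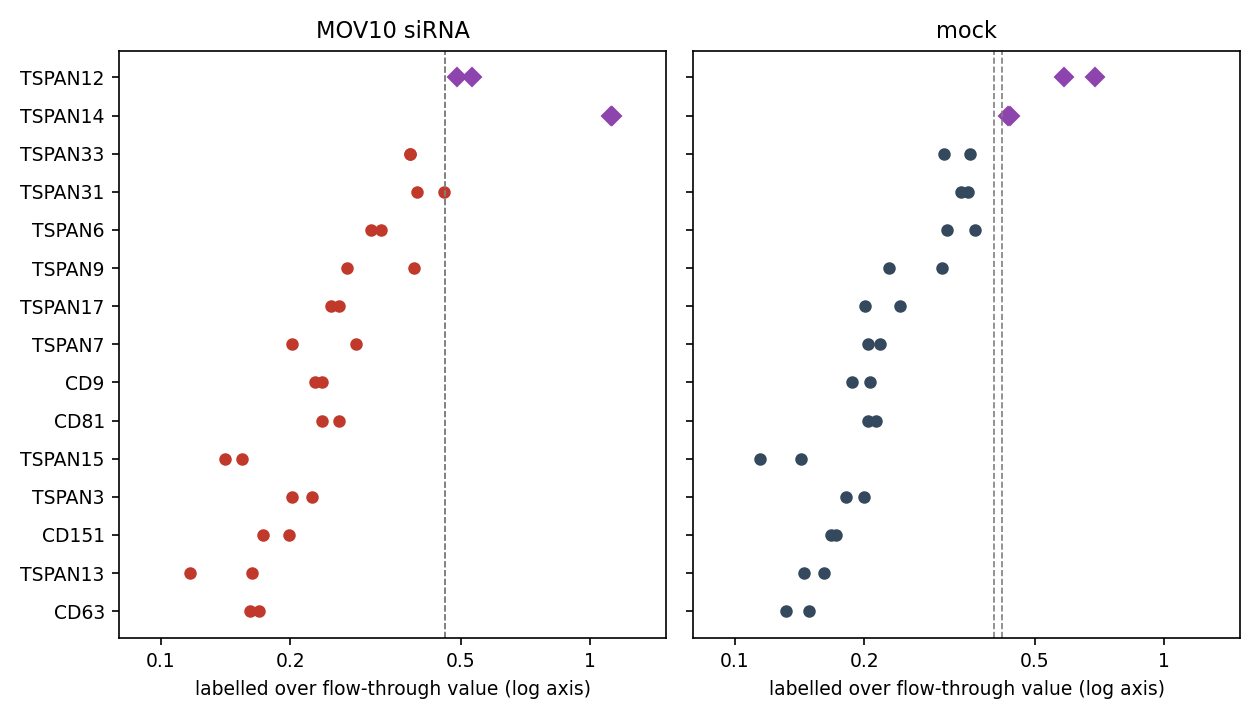
Ratio of the labelled to the flow-through value (log axis) for 15 tetraspanins, 1 point per replicate column, in MOV10 siRNA cells (left) and mock cells (right), with dashed lines at the median gene of each column. TSPAN12 and TSPAN14 (diamonds) lie above the median gene in both conditions, and TSPAN14 lies at 1.13 and 1.12 in siRNA cells, against 0.438 and 0.432 in mock cells.

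Of 33 tetraspanins listed, 16 were in the table, and 17 were not analysed here. Among the 13 others past the floor, most calls in the RNA fractions were falls in siRNA cells, and no half-life passed the test. In total RNA 1 of 13 rose and 4 fell, beside 12.9% and 14.3% of all genes. In labelled RNA none rose and 6 fell, beside 9.88% and 11.5%. In flow-through RNA none rose and 9 fell, beside 31.7% and 26.8%. In half-life none passed limma in either direction, beside 1.88% and 4.27% of genes. Of the 13, 1 had an unadjusted half-life p under 0.05, and the share of all genes under it was not computed. Their median log2 changes were -0.15, -0.25, -0.25 and -0.01 in total, labelled and flow-through RNA and half-life, beside 0.01, 0.00, 0.03 and 0.00 over all genes. Without centring the count was 2 of 13 lower both in total and in labelled RNA, with none higher. In total RNA a floor of 20 left 6 of them, with 2 called higher and none lower, and without siRNA replicate 1 none was higher and 1 lower. Over all genes without centring, 1641 genes were called higher and 333 lower in labelled RNA, against 599 and 700 with centring. The half-life changes of the 13 ran from -0.17 to 0.34 (TSPAN13, SE 0.17). TSPAN12 at 0.46 and TSPAN14 at -1.23 lay outside that range, but they were chosen by their siRNA response, so the contrast is a description. Without mock replicate 1 TSPAN12 gave 0.39.

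CD9, a tetraspanin known from egg and sperm fusion, fell in all 3 fractions with no change called in half-life. Its total RNA was 18.7 and 20.5 in siRNA cells, against 33.8 and 33.3 in mock cells, a log2 change of -0.73 (SE 0.079, limma adjusted p = 2.0e-05). Labelled RNA of CD9 was 6.11 and 5.91 in siRNA cells, against 10.0 and 8.63 in mock cells, a change of -0.69 (limma adjusted p = 0.00067), and flow-through RNA changed by -0.83. Its half-life change was -0.03, and the 2 groups overlapped at 1246 and 1691 min in siRNA cells and 1217 and 1376 min in mock cells. CD9 and TSPAN14 thus had like changes in total RNA, -0.73 and -0.76, with unlike half-lives.

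CD151, a partner of laminin-binding integrins, and TSPAN31 also fell in all 3 fractions. The total RNA changes were -0.31 for CD151, -0.24 for TSPAN31 and -0.25 for TSPAN7, and TSPAN13 rose by 0.26. Each of these 4 calls in total RNA was lost when at least 1 replicate column was left out, and that of CD9 was not. In labelled RNA TSPAN6 fell by 0.41 on the log2 scale, TSPAN13 by 0.38 and CD81, a co-receptor of B cells, by 0.25. In flow-through RNA the changes of CD63, CD81, TSPAN6, TSPAN7, TSPAN9 and TSPAN17 lay between -0.35 and -0.19, all past the test. Without at least 1 of the columns the labelled calls of CD151, CD81, TSPAN13 and TSPAN31 and the flow-through calls of TSPAN6, TSPAN9 and TSPAN17 were lost. Of the 13 other tetraspanins past the floor, only TSPAN31 held TACTGCA in its longest annotated 3′ UTR (2921 bases). Its half-life change was -0.10 (limma adjusted p = 0.57). Tetraspanins below the floor or not in the table were not examined for it.

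**Figure D4:**
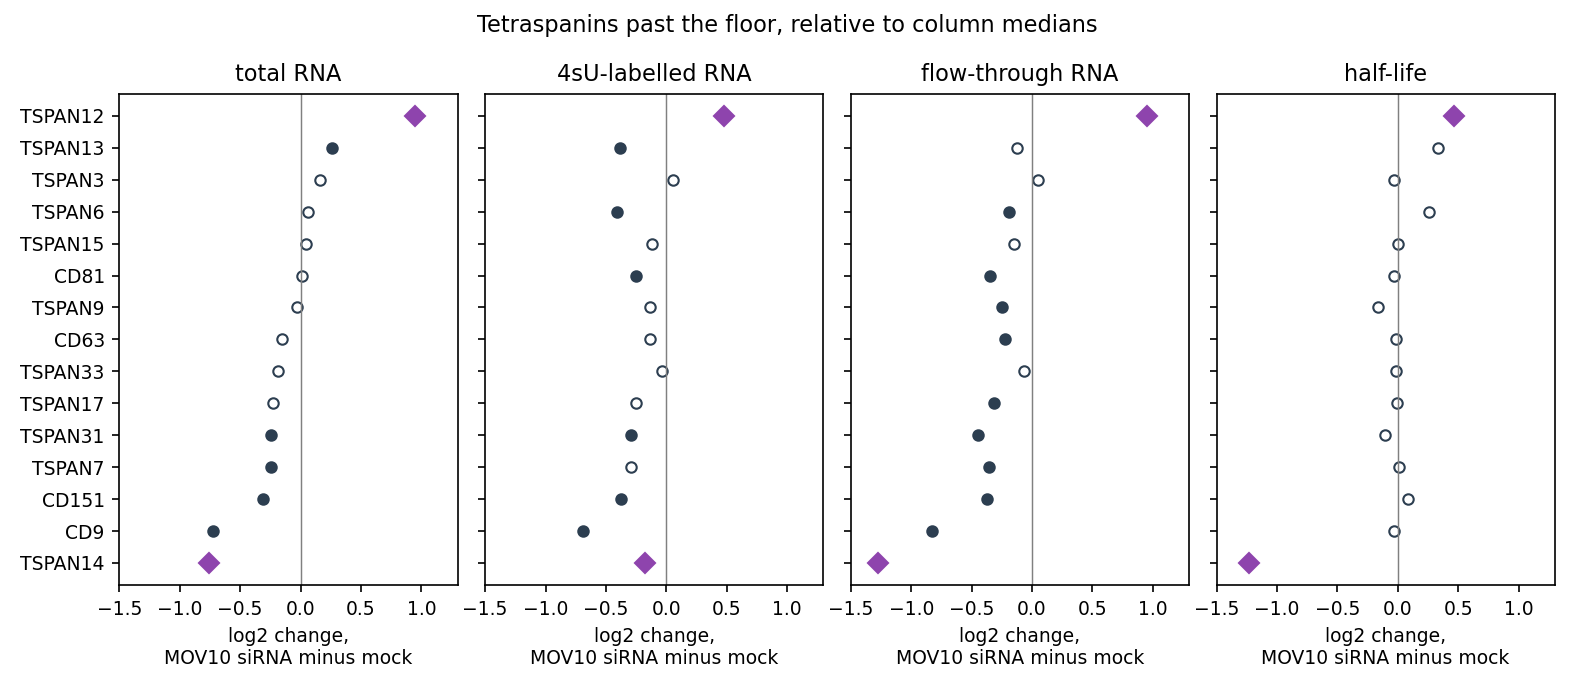
Log2 change of 15 tetraspanins, MOV10 siRNA minus mock relative to the column medians, in total RNA, labelled RNA, flow-through RNA and half-life. Diamonds mark TSPAN12 and TSPAN14, which were chosen by these values and carry no test, filled circles mark other tetraspanins past limma's threshold and open circles those that did not pass. In half-life the 13 circles lie between -0.17 and 0.34, all open.

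Besides TSPAN14, 4 of 5 TspanC8 members were in the table and TSPAN15, TSPAN17 and TSPAN33 were past the floor. Their half-life changes lay between -0.01 and 0.00 with no call, and the only call in an RNA fraction was a lower flow-through value of TSPAN17 (-0.32, limma adjusted p = 0.011), which was lost without mock replicate 1. TSPAN5 had half-lives of 585 and 557 min in siRNA cells and 398 and 494 min in mock cells, outside the test. Relative to the column medians its log2 change was 0.17, with a pooled SD of 0.27 between columns of a group.

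ADAM10, the protease that TSPAN14 binds, had total RNA of 10.2 and 10.1 in siRNA cells, against 8.29 and 8.97 in mock cells. Its log2 change of 0.23 did not pass (SE 0.083, limma adjusted p = 0.051), and in flow-through RNA it rose by 0.21 (limma adjusted p = 0.048), a call lost when any 1 column was left out. In the list of ADAM10, Notch and gamma-secretase genes, 15 of 25 were past the floor. In total RNA 2 rose, the ADAM10 substrates APP (0.21) and CDH2 (0.27), and 1 fell, the gamma-secretase subunit PSENEN (-0.24). None of these 3 calls held without siRNA replicate 1. Over all genes 12.9% rose and 14.3% fell in total RNA. The labelled fraction held 1 rise and 5 falls among the 15, beside 9.88% and 11.5% of all genes, and the flow-through fraction 4 rises and 5 falls, beside 31.7% and 26.8%, so the flow-through counts were near those of all genes. In half-life only the Notch ligand DLL3 fell (-0.41, limma adjusted p = 0.045), a call that was lost when any 1 column was left out. Over all genes 1.88% rose and 4.27% fell in half-life. The DLL3 half-lives overlapped before centring, at 482 and 685 min in siRNA cells and 627 and 705 min in mock cells. DLL3 changed by -0.55 in labelled and -0.99 in flow-through RNA, beside -0.08 in total RNA. The sheddase ADAM17, at 0.30, and HES1, a Notch target, at 0.23, had the largest half-life increases of the list, and APH1B had -0.19; these 3 did not pass. HES1 labelled RNA fell by 0.37 on the log2 scale (limma adjusted p = 0.021), at 470 and 427 in siRNA cells, against 554 and 504 in mock cells, while its total RNA change was 0.04; the labelled call was lost without mock replicate 1 or 2. The median half-life change of the list was -0.07, beside 0.00 over all genes.

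In the list of Norrin, Frizzled and beta-catenin genes, 16 of 31 were past the floor. None of the 16 passed in half-life, beside 1.88% of all genes called higher and 4.27% lower. An unadjusted half-life p under 0.05 was seen in 4, and the share of all genes under it was not computed. No change was called in total RNA or half-life for LRP5, the co-receptor in the TSPAN12 complex. It had a total RNA change of 0.00 (SE 0.10, limma adjusted p = 0.98) and a half-life change of -0.11, and FZD4, below the floor, had total RNA of 1.16 and 1.205 in siRNA cells and 1.24 and 1.49 in mock cells. NDP, which encodes Norrin, was not analysed here. In total RNA the receptors FZD6 (0.65) and FZD3 (0.30) and the co-receptor LRP6 (0.32) rose, and the transcription factors LEF1 (-0.39) and TCF7 (-0.40) fell. FZD6 total RNA was 14.4 and 15.7 in siRNA cells, against 9.42 and 9.24 in mock cells (limma adjusted p = 0.00011), and kept its call without any 1 column, while each of the other 4 lost it without at least 1. These 3 rises and 2 falls stand beside 12.9% and 14.3% of all genes. The labelled fraction held no rise and 3 falls among the 16, beside 9.88% and 11.5%, and the flow-through fraction 3 rises and 5 falls, beside 31.7% and 26.8%. The half-life changes of FZD6 (0.59), LRP6 (0.29), GSK3B (-0.38), LEF1 (-0.33) and TCF7 (-0.27) did not pass, nor did that of FZD3 (-0.05). The median half-life change of the list was -0.04, beside 0.00 over all genes.

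Of 18 tetraspanin partners, 4 were past the floor, and ITGB1, the beta subunit of many integrins, rose. Its total RNA was 88.2 and 89.4 in siRNA cells, against 65.1 and 67.0 in mock cells, a log2 change of 0.44 (SE 0.063, limma adjusted p = 0.00022). That was the only call of the 4 in total RNA, beside 12.9% of all genes called higher and 14.3% lower. In labelled RNA only ITGB1 was called (0.32), beside 9.88% and 11.5%, a call lost with a floor of 20 and without at least 1 column. In flow-through RNA ITGB1 (0.57) and TSG101 (0.27) rose and none fell, beside 31.7% and 26.8%. No half-life of the 4 passed, beside 1.88% and 4.27% of all genes. The changes were 0.23 for SDCBP, 0.19 for ITGB1, 0.16 for TSG101 and -0.04 for CD47, and none had an unadjusted p under 0.05.

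In the plot of half-life against total RNA changes the pair stood in opposite corners. TSPAN12 lay at 0.95 in total RNA and 0.46 in half-life, and TSPAN14 at -0.76 and -1.23.

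**Figure D5:**
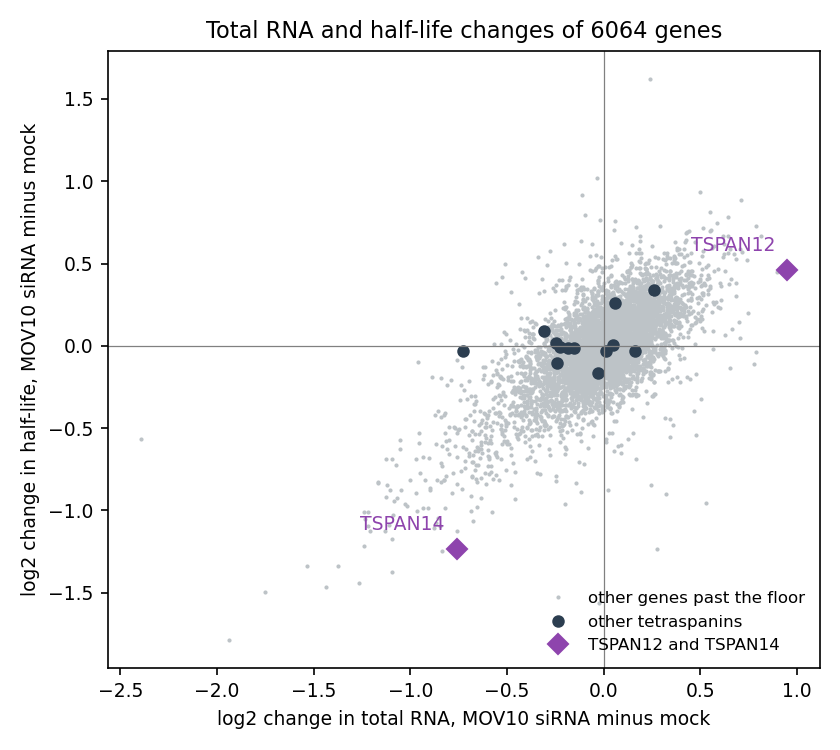
Log2 change in half-life against log2 change in total RNA, MOV10 siRNA minus mock relative to the column medians, with 1 point per gene for 6064 genes. TSPAN12 (0.95, 0.46) and TSPAN14 (-0.76, -1.23) are diamonds, chosen by these values, and the other 13 tetraspanins are dark circles between -0.17 and 0.34 in half-life.

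The genes whose pattern over the 12 expression columns was nearest to each were found by the root mean square difference of log2 values, after centring each gene on its own mean. Nearest to TSPAN12 were E2F5 (0.152), ANLN (0.161), FAM135A (0.171), ITPR1 (0.190) and NEK1 (0.197), where the median gene differed by 0.594. Among the nearest to TSPAN14 were CCND3 (0.138), PAK4 (0.148), PGRMC2 (0.170) and YEATS4 (0.175), where the median gene differed by 0.636. The 5 genes near TSPAN12 had half-life changes of 0.19 to 0.88 and labelled RNA changes of 0.07 to 0.44, beside 0.46 and 0.48 for TSPAN12. The 4 near TSPAN14 had half-life changes of -1.003 to -0.62 and labelled RNA changes of -0.28 to -0.15, beside -1.23 and -0.18 for TSPAN14. In their longest annotated 3′ UTRs none of the 5 near TSPAN12 held TACTGCA. Of the 4 near TSPAN14, PAK4 (4237 bases) and YEATS4 (480 bases) held 1 match each, beside 11.7% of 5664 genes with 3′ UTRs of any length. Among 3′ UTRs within 20% of 4655 bases, a range that holds the PAK4 length, the share was 27.7%. For lengths near that of YEATS4 no share was computed. These genes were picked by likeness in the same columns, so their values are a description. TACTGCA was itself brought up by earlier results of these data, so the matches are a description too.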

How the data were processed

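The submitters' processing notes name TopHat2 2.06 and hg18; the tool and the unit of the expression values are not named there. All deposited expression values are a normalised signal per gene, and the half-lives were computed by the authors with a published method, per the labels. The half-life unit, taken as minutes, was settled by recomputing half-lives from the fractions with weights fitted by total least squares. Depth is not given: after 1 factor per group, ratios between replicate columns matched ratios of whole numbers up to 60 in 30 to 56 of the 250 lowest genes (tolerance 1e-05, natural log), so whole reads were not recovered.

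Of 7682 genes, 6064 averaged at least 5 in total RNA of both siRNA and mock cells and were tested. Values were taken as log2(value + 1), half-lives as log2, and each column was centred on its median gene. limma 3.58.1 in R 4.3.3 compared 2 columns with 2, with a mean-variance trend and Benjamini-Hochberg adjustment over the 6064 genes, and was tested on simulated data. Fold changes on this scale understate changes of low genes. Only GENCODE v29 gives the GRCh38 coordinates. Members, lists and tests were chosen with earlier results of these data known. The genes named are the members, MOV10, tetraspanins past limma in any comparison plus CD9, CD63, CD81 and CD151, of each other list the 2 largest half-life increases and decreases and all calls in half-life or total RNA, and the 5 nearest genes, 1 of which is not reported here; ADAM10, LRP5, FZD4, NDP, TSPAN5, TSPAN15 and TSPAN33 were added as partners or group members after their values were seen. The labelled and flow-through columns of 1 number entered the same half-life and are paired (correlation of deviations 0.10 in mock cells); their test without the block was kept as planned, and the members' own test in it was dropped, since the choice used those columns. Alternatives were another pseudocount, floor or centring, the replicate block, recomputed half-lives and leaving out each column.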

Additional observations from a re-analysis of the deposited data

Results flagged for a closer look

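TSPAN13 lay higher in total RNA and lower in both of its fractions in siRNA cells. Its total RNA was 31.8 and 29.7 in siRNA cells, against 24.6 and 27.2 in mock cells, a log2 change of 0.26. Labelled RNA was 4.31 and 5.72 in siRNA cells, against 5.90 and 6.25 in mock cells (-0.38), and flow-through RNA was 36.8 and 35.1 against 40.8 and 38.7 (-0.12). It drew attention because the columns of the 2 groups did not overlap in any fraction and total RNA moved the opposite way; the difference between fractions was not tested. The flow-through change did not pass limma (adjusted p = 0.079). The total and labelled calls of TSPAN13 were each lost when at least 1 column was left out. What share of all genes showed such a pattern was not computed.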

How the results depend on the processing

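TSPAN12 and TSPAN14 kept the sign of their siRNA changes in all 4 measures under every alternative run for them. Those were no centring, each column left out, a pseudocount of 0.1 for the RNA fractions and recomputed values for the half-life. Other floors, the replicate block and the median change at 0 were not run for these changes. Without centring TSPAN12 gave 0.61 in labelled RNA and 0.66 in half-life, and TSPAN14 gave -0.042 in labelled RNA and -1.04 in half-life. With a pseudocount of 0.1 TSPAN14 gave -0.84 in total and -1.38 in flow-through RNA, and with recomputed half-lives -1.12. Labelled against flow-through RNA in mock cells reversed for TSPAN12 without centring (-0.60) and for TSPAN14 with the median change at 0 (0.083), a centring added after seeing the data.

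Over all genes, a floor of 20 on 2603 genes gave 663 calls in total RNA against 1651, 572 in labelled RNA against 1299, 1667 in flow-through RNA against 3551, 157 in half-life against 373 and 2291 in labelled against flow-through RNA against 5327; fewer genes were tested. Without centring labelled RNA gave 1974 calls and half-life 7, and the cause was not tested. Leaving out 1 column gave 856 to 1765 calls in total RNA, 826 to 1145 in labelled RNA, 2602 to 3122 in flow-through RNA and 49 to 248 in half-life, the lowest without mock replicate 1 for half-life and flow-through RNA, without siRNA replicate 1 for total RNA and without mock replicate 2 for labelled RNA. Between siRNA and mock cells the columns shared only a number, with correlations of deviations between -0.07 and 0.11; there the replicate block gave 139 half-life calls and ended the half-life call of DLL3 and the flow-through call of ADAM10. In labelled against flow-through RNA, where the columns are paired, the block gave 5386 calls and all 13 other tetraspanins kept theirs. Of 60 calls of named genes, 35 kept direction and call under every alternative in which they were tested. With values of unknown depth and 2 columns a group, small half-life changes may go uncalled.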
